A study of Homo sapiens with 2 samples.

Results

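The A549-like barcodes are 746 of the 2804 barcodes kept from a mixture of 5 human lung adenocarcinoma cell lines, or 26.6% of them (exact binomial interval 24.98 to 28.28%, counting error only), out of 3298 barcodes in all. Each barcode is a droplet with both a gene expression (RNA) profile and an open chromatin (ATAC) profile. The members were chosen by 21 marker genes whose unique molecular identifiers (UMIs, counts of single RNA molecules) were summed in 5 sets. A barcode is a member if it has at least 2 UMIs of RBFOX3, LINC02506, GPRIN3, IGSF11 and AKR1B10 together and if these make up at least 70% of its UMIs of all 21 genes. The other 4 groups were selected in the same way and are called here by 2 of their markers. They are the S100A9/CST1 group (400 barcodes), the SLC30A8/MAGEA10 group (513), the GRIA4/LINC01980 group (297) and the DHRS2/ZNF676 group (250). A further 598 kept barcodes met none of these rules.

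The lines A549, H838, H1975, H2228 and HCC827 were cultured apart, untreated, in RPMI medium with 10% fetal calf serum until nearly confluent. They were frozen and combined in equal proportions, and 1 droplet tube was divided in a larger and a smaller fraction. From the larger one, 80% of the tube, come 1 RNA library and 1 ATAC library, with 1 culture per line. All 5 groups therefore share the same libraries, there is no replicate of any group, and barcodes were not used to make p-values or standard errors. Values are CPM, the summed UMIs or peak counts of a group scaled to a total of 1000000, and intervals are exact 95% Poisson intervals that cover counting error only. A gene was called higher in the A549-like group where its CPM + 1 was at least 2 times that of each of the other 4 groups, and lower where it was at most 1/2 of each, among 16956 genes with at least 50 UMIs over the groups.

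A549 is a widely used line from a human lung adenocarcinoma. It is known to carry mutations in STK11 and KEAP1 and to lack CDKN2A. KEAP1 is the adaptor that marks the transcription factor NRF2 for degradation. When KEAP1 is lost, NRF2 stays active and drives enzymes that reduce carbonyls, make and use glutathione and supply NADPH. The factors HNF4A and FOXA2 control genes of liver and gut, such as the fibrinogen chains. RBFOX3 is a splicing factor best known as the neuronal nuclear antigen NeuN.

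The label was compared with marker genes of each line. These were listed with earlier results of these data known and read in the RNA library that chose the members. They are therefore a description and no independent check. All 7 A549 markers (ALDH1A1, CYP24A1, CPS1, MUC5AC, FGA, FGB and FGG) were called higher, with a median log2 ratio to the geometric mean of the other groups of 5.33. The same median over all measured genes was 0.08. None of the markers of HCC827 (6 measured), H1975 (4) or H2228 (6) was called higher, with medians of -0.38, -1.19 and -0.65. In barcodes of at most 2% mitochondrial UMIs in all groups these medians were -1.18, -2.75 and -0.83. EGFR, the receptor gene amplified in HCC827, was at 725.8 CPM in the A549-like group and at 7560 CPM in the GRIA4/LINC01980 group. Of 9 H838 markers, 4 were called higher, with a median of 2.25. AKR1C1, AKR1C2 and the rule gene AKR1B10, whose direction the selection fixed, were among them. With at most 2% mitochondrial UMIs in all groups 5 of the 9 were called, ALDH3A1 among them, with a median of 2.48. All 9 also stand in the NRF2 and NADPH lists, and H838 is another line with altered KEAP1. Whether these genes separate A549 from H838 was not tested.

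The A549-like barcodes were the shallowest in RNA and had few mitochondrial UMIs. Their median was 4746.5 UMIs and 2698 genes per barcode, against medians of 7847 to 15343.5 UMIs in the other groups. Their median of 25024.5 peak counts lay within the range of the other groups (13071 to 33819.5). The median mitochondrial share was 0.435%, close to the 0.463% of the SLC30A8/MAGEA10 group and below the 8.88 to 14.2% of the others. The median share of ribosomal protein UMIs was 1.21%, against 1.83 to 4.56% elsewhere. These depths touch every comparison below, and 624 members (83.6%) had at most 2% mitochondrial UMIs, against 36 barcodes of the S100A9/CST1 group and 39 of the GRIA4/LINC01980 group. Gene calls, gene lists and the number of leading peaks were therefore also computed with barcodes of at most 2% mitochondrial UMIs in all groups. For genes and lists those values stand beside the result where the call differs. Start, promoter, gene span and chromosome sums and the zinc finger count are given without this limit. Around CDKN2A the limit was set on the A549-like members alone.

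**Figure D1:**
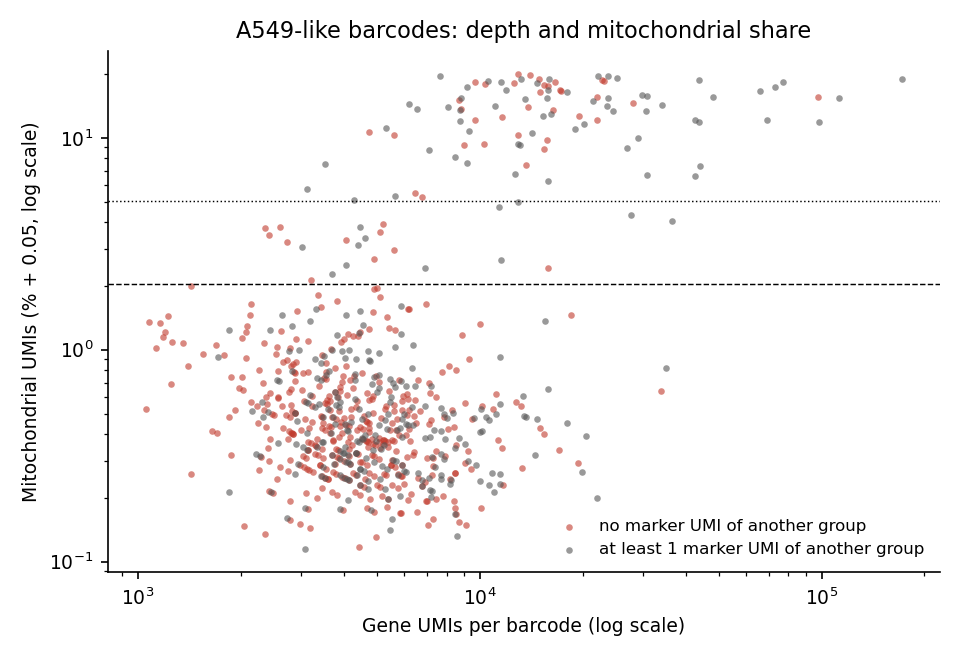
Each point is 1 of the 746 A549-like barcodes, with gene UMIs on the x axis (log scale) and the percentage of mitochondrial UMIs plus 0.05 on the y axis (log scale). Most points lie under the dashed line at 2%, while the 99 above the dotted line at 5% lie further right, and grey points carry a marker UMI of another group.

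Members differed in how firmly the rule held them. They had a median of 10 UMIs of the 5 marker genes (2 to 196), and 191 members had UMIs of all 5 genes while 28 had UMIs of 1 gene alone. Just inside the count threshold, 26 members had exactly 2 marker UMIs, and just outside it 11 barcodes had a single one and no marker UMI of another group. Their median depths were 2872 and 2617 UMIs. Just inside the share threshold, 41 members had a marker share of 70 to under 80%, and 40 barcodes with at least 2 marker UMIs lay at 60 to under 70%. In all, 442 members had no marker UMI of any other group.

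Peaks did not enter the rule, apart from the minimum of 1000 peak counts per barcode. A peak was called leading where its CPM + 1 in the A549-like group was at least 4 times that of each other group, and 1122 of 107414 measured peaks were (1.04%). Since these peaks were chosen on the sums of the same barcodes, the spread over single barcodes is a description. The median member had 1.82% of its peak counts in the leading peaks (quartiles 1.57 and 2.03%), while the medians of the other groups were 0.0676 to 0.0880%. A share of at least 1% was found in 711 of 746 members (95.3%), in 1 barcode of the SLC30A8/MAGEA10 group and in 0 barcodes of the other 3 groups. The 26 members with exactly 2 marker UMIs had a median of 1.46%, and the 11 barcodes just outside had 1.38%. The 231 kept barcodes with at least 2 marker UMIs but a marker share under 70% had a median of 0.140%. Among the 598 barcodes in no group, 56 had at least 1%. Only 8 members were under 0.5%, and in their summed RNA ALDH1A1 stood at 206.5 CPM, against 2760 CPM in the members with at least 1%.

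The 5 genes that chose the members are given as a description, since the rule fixes their direction. RBFOX3 (ENSG00000167281) is deposited at chr17:79235805-79516148 on GRCh38 and encodes a neuronal splicing factor. Its level was 387.8 CPM (371.8 to 404.3) in the A549-like group, 4.11 in the S100A9/CST1 group, 1.94 in the SLC30A8/MAGEA10 group, 0 in the GRIA4/LINC01980 group and 1.99 in the DHRS2/ZNF676 group. AKR1B10 (ENSG00000198074, start deposited at chr7:134527567), an aldo-keto reductase that reduces retinal and other carbonyls, was at 704.6 CPM and at 2.75 to 21.8 CPM elsewhere. It is the 1 gene of the set with a clear level in another group, the S100A9/CST1 group. LINC02506 (ENSG00000251129), a long noncoding RNA of chromosome 4, was at 298.2 CPM and at most 1.06 CPM elsewhere. IGSF11 (ENSG00000144847), an immunoglobulin-domain adhesion protein, was at 246.1 CPM and at most 2.30 CPM elsewhere. GPRIN3 (ENSG00000185477), a G protein regulated inducer of neurite outgrowth, was at 235.4 CPM and at most 1.29 CPM elsewhere.

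The share of members with a UMI differed between the rule genes. AKR1B10 had a UMI in 92.6% of members and RBFOX3 in 74.5%, at a median depth of 4746.5 UMIs. In the S100A9/CST1 group, at a median of 13942 UMIs, these shares were 25.2% and 4.50%. After each barcode was thinned to 2000 UMIs, which kept 720 members, the shares were 73.6% and 50.6% in the A549-like group, and 5.00% and 0.25% in the S100A9/CST1 group. LINC02506, GPRIN3 and IGSF11 had a UMI in 44.4%, 40.1% and 33.5% of thinned members and in at most 0.25% of the thinned S100A9/CST1 barcodes.

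Chromatin at these genes differed with the RNA for 3 of the 5, within 2000 bases of the lower coordinate of their deposited intervals. The upper coordinate, where a start on the minus strand can lie, was not read for this count. The peak at the AKR1B10 start was at 51.2 CPM in the A549-like group and at most 5.33 CPM elsewhere. The LINC02506 start peak was at 7.67 CPM and at most 0.191 CPM elsewhere, and that of IGSF11 at 28.4 CPM and at most 11.9 CPM. At a further RefSeq start of IGSF11 the peak (chr3:119145143-119146042) was at 5.98 CPM and at most 3.92 CPM elsewhere. RBFOX3 and GPRIN3 had no measured peak at that lower coordinate. Across the RefSeq span of RBFOX3 there were 34 peaks, 7 of them leading, with a summed 299.5 CPM in the A549-like group and at most 108.4 CPM elsewhere. The GPRIN3 span held 7 peaks, 3 of them leading, at 61.5 CPM and at most 11.2 CPM elsewhere. The AKR1B10 span held 4 peaks, 2 of them leading, at 81.3 CPM and at most 24.2 CPM elsewhere. The IGSF11 span held 4 peaks, 0 of them leading, at 42.3 CPM and at most 31.9 CPM elsewhere. Over the LINC02506 span the 3 peaks summed to 20.5 CPM, below the 25.1 CPM of the GRIA4/LINC01980 group, and 1 of the 3 was leading. A further RefSeq start of RBFOX3, upstream of the deposited entry, lies in the peak chr17:79658605-79659491, which was at 7.71 CPM and at most 1.66 CPM elsewhere. The promoter window of another RefSeq start of RBFOX3 overlaps the peak chr17:79607687-79608591. That peak was at 1.73 CPM in the A549-like group and at 2.19, 3.84 and 4.98 CPM in the S100A9/CST1, SLC30A8/MAGEA10 and GRIA4/LINC01980 groups. In the DHRS2/ZNF676 group it was at 0.699 CPM. The promoter at chr17:79658605-79659491 is printed because its peak was the higher of these in the A549-like group. The sequence is from RefSeq (GRCh38.p14), chr17:79658926-79659225 on the minus strand, 250 bases before to 50 bases after the start, and no motif is marked.
RBFOX3: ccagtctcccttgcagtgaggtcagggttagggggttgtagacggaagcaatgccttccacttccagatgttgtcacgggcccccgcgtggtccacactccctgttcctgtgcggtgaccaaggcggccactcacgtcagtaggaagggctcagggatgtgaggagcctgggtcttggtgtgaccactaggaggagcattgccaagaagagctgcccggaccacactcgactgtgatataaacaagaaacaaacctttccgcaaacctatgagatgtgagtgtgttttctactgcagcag

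Across all genes, 739 of 16956 measured (4.36%), the 5 rule genes among them, were called higher in the A549-like group and 133 (0.784%) lower. With at most 2% mitochondrial UMIs in all groups, 533 of 12363 (4.31%) were higher and 206 (1.67%) lower, and 452 of the 739 and 68 of the 133 were called there too. With that limit on the members alone, 1056 were higher and 554 lower, and with members free of marker UMIs of other groups 873 were higher and 505 lower, so the number of lower genes rested on which members were counted. The rule chose barcodes by RNA of the same library, so these counts describe the group and support nothing further.

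The 15 genes that led by their ratio to the highest other group were called under every alternative that was run. ALDH1A1 (ENSG00000165092, chr9:72953053-72953056), which oxidises retinal to retinoic acid, had 2492 CPM (2452 to 2534), against 29.1, 17.7, 5.72 and 15.2 CPM in the other groups. That is 82.8 times the highest other group on the CPM + 1 scale. ST6GAL2 (ENSG00000144057, chr2:106886646-106887108), a sialyltransferase, was at 453.6 CPM and at most 3.99 CPM elsewhere, a ratio of 91.1. AL445584.2, a noncoding entry of chromosome 9, was at 261.9 CPM and at most 1.59 CPM.

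Several of the leading genes are known from nerve cells or muscle. NRCAM, a neuronal cell adhesion molecule, was at 563.4 CPM and at most 7.39 CPM elsewhere. CACNA2D1, a subunit of voltage-gated calcium channels, was at 710.4 CPM and at most 10.6 CPM. NTRK3, the receptor for neurotrophin 3, was at 221.5 CPM and at most 2.12 CPM. Levels are not compared between genes, since UMIs were not scaled to gene length. CPLX2, which controls synaptic vesicle fusion, was at 156.7 CPM and at most 1.41 CPM. CNKSR2, a scaffold of neuronal synapses, was at 180.9 CPM, and SGCD, a sarcoglycan of muscle membranes, at 146.4 CPM, each at most 1.84 CPM elsewhere.

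The rest of the leading genes come from other settings. DCDC2, a doublecortin-domain protein of cilia, was at 231.2 CPM, and FILIP1, a filamin-binding protein, at 281.5 CPM. KRT81, a hair keratin whose reads may be shared with its close paralogs, was at 416.7 CPM and at most 8.57 CPM elsewhere. AADAC, a liver and gut deacetylase, was at 57.0 CPM and ZMAT4, a zinc finger protein, at 101.1 CPM.

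**Figure D2:**
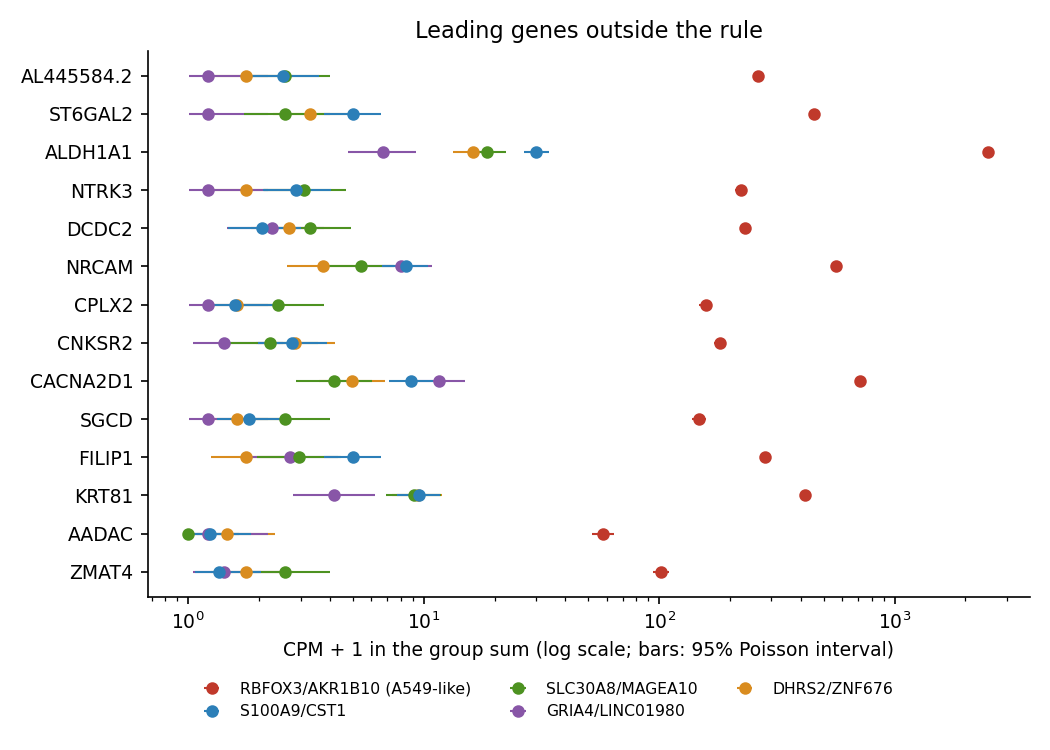
Leading genes outside the rule (14 of the 15), with CPM + 1 in each of the 5 group sums on a log scale and bars for the 95% Poisson interval. The A549-like points lie right of all others in every row, from AADAC at 57.0 CPM to ALDH1A1 at 2492 CPM.

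Of 14 measured NRF2 target genes that reduce carbonyls and metabolise drugs, 3 were called higher and 0 lower, and 7 were highest in the A549-like group. The median log2 ratio was 1.84 against 0.08 over all measured genes, of which 4.36% were called higher and 0.784% lower. The list counts below are to be read beside the same shares. The called genes were AKR1C1, AKR1C2 and AKR1B10, and the selection fixed the direction of AKR1B10, a rule gene that also enters the median. AKR1C2 was at 1407 CPM and AKR1C1 at 843.1 CPM, against 244.4 and 77.8 CPM in the S100A9/CST1 group and at most 27.1 CPM in the other 3. Both reduce steroids and carbonyls, and reads of AKR1C1, AKR1C2 and AKR1C3 may be split between these near-identical copies. AKR1C3 was at 629.2 CPM, against 317.1 CPM in the S100A9/CST1 group, and was not called. The S100A9/CST1 group was above the A549-like group for ALDH3A1 (256.4 and 144.3 CPM), which oxidises aldehydes, and for NQO1 (447.4 and 373.6 CPM), a quinone reductase. With at most 2% mitochondrial UMIs in all groups, 7 of 13 were called higher with a median of 2.43, and ALDH3A1 was then at 134.2 CPM against 65.2 CPM in the S100A9/CST1 group.

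Of 11 measured glutathione genes, 2 were called higher and 0 lower, against 4.36% and 0.784% of all measured genes. The median was 1.52. ABCC2, which exports glutathione conjugates, was at 748.8 CPM and at most 118.3 CPM elsewhere. GPX2, a glutathione peroxidase of gut and lung epithelium, was at 100.1 CPM, 20.7 CPM in the S100A9/CST1 group and at most 1.94 CPM in the rest. SLC7A11, the cystine importer that feeds glutathione synthesis, was at 795.2 CPM, against 480.3 CPM in the S100A9/CST1 group and at most 110.7 CPM in the other 3, and was not called. GCLM, a subunit of the enzyme for the first step, was at 210.6 CPM and was higher in the SLC30A8/MAGEA10 group, at 271.3 CPM.

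Of 6 genes of NADPH supply, 2 were called higher, against 4.36% of all measured genes, with a median of 0.98. PGD, an enzyme of the oxidative pentose phosphate pathway, was at 345.5 CPM and at most 156.5 CPM elsewhere. FECH, which inserts iron into haem, was the 1 of 5 haem and iron genes called higher, at 28.0 CPM. None of the 4 thioredoxin genes (median 0.36, and 1.00 with at most 2% mitochondrial UMIs in all groups) and none of the 9 NRF2 regulators (median 1.07) was called. TXNRD1, thioredoxin reductase, was at 1093 CPM and at 1200 CPM in the S100A9/CST1 group. NFE2L2, which encodes NRF2 itself, was at 261.3 CPM, within the 148.2 to 304.0 CPM of the other groups.

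Liver and gut products were the list with the largest median among those examined beside the line markers. Among products, 8 of 13 measured were called higher and 0 lower, against 4.36% and 0.784% of all measured genes. The median was 3.57, and 16 of the 29 listed products were not measured. All 29 summed to 827.7 CPM in the A549-like group, 577.1 CPM in the S100A9/CST1 group and at most 176.4 CPM in the rest. After thinning, a UMI of the list was found in 63.75% of A549-like members, 59.75% of S100A9/CST1 barcodes and at most 25.3% in the rest. Both the A549-like and the S100A9/CST1 group then had a median of 1 UMI per barcode. CPS1, MUC5AC, FGA, FGB and FGG also stand in the A549 marker list, chosen with earlier results of these data known. The count and median are therefore a description. The fibrinogen chains FGA, FGB and FGG, made mainly in liver, were at 95.2, 132.6 and 100.8 CPM. Elsewhere FGA and FGG were at most 1.53 and 2.82 CPM, while FGB reached 37.9 CPM in the GRIA4/LINC01980 group. CPS1, which starts the urea cycle, was at 142.7 CPM and at most 35.1 CPM elsewhere. MUC5AC, a gel-forming mucin, was at 122.1 CPM, against 39.8 CPM in the S100A9/CST1 group and at most 3.67 CPM in the other 3. CDH17, an intestinal cadherin, was at 38.3 CPM, MUC13, a membrane mucin, at 28.5 CPM and APOH, a plasma glycoprotein, at 15.4 CPM. At the limit of 2% mitochondrial UMIs in all groups APOH had too few UMIs to be measured, and 7 of 11 were called.

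Among 13 measured regulators of these tissues, 5 were called higher and 0 lower, against 4.36% and 0.784% of all measured genes. The median was 1.90. HNF4A, a nuclear receptor of hepatocytes and enterocytes, was at 48.3 CPM and at most 0.612 CPM elsewhere. FOXA2 was at 20.8 CPM and at most 5.36 CPM, and NR1H4, the bile acid receptor, at 12.8 CPM and at most 2.12 CPM. With at most 2% mitochondrial UMIs in all groups 4 of 10 were called, with a median of 2.61. NR1H4 was then under the minimum, and NR5A2, a nuclear receptor of liver and pancreas, was called higher, at 179.3 CPM and at most 58.7 CPM. The related HNF4G was not called and was higher in the GRIA4/LINC01980 group (292.8 CPM) than in the A549-like group (70.5 CPM). The regulators as a list summed to 457.2 CPM in the A549-like group and to 461.2 CPM in the GRIA4/LINC01980 group. Albumin (ALB) and alpha-fetoprotein (AFP) were not measured, with 0.175 and 0 CPM in the A549-like group.

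The peaks at the starts of FGA, HNF4A, FGB, FGG and APOH had at least 4 times the CPM of every other group. Of these genes the promoters of FGA and HNF4A are printed, and for HNF4A the start with the higher peak of its pair is shown. Each is 300 bases of RefSeq (GRCh38.p14), 250 before to 50 after the start, read along the gene, and no motif is marked. FGA is chr4:154590693-154590992 on the minus strand. HNF4A is chr20:44355449-44355748 on the plus strand.
FGA: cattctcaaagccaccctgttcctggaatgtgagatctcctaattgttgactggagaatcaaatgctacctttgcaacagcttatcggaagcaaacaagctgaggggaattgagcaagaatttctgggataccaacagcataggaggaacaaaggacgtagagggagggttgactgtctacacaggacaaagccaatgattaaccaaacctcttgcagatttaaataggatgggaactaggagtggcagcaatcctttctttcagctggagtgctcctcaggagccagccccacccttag
HNF4A: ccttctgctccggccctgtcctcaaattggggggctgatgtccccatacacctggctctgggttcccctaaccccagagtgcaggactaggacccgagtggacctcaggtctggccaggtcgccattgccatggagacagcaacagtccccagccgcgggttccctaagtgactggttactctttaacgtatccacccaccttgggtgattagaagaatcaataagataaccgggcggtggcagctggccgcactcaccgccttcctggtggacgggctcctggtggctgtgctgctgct

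The peak at the FGA start (chr4:154590330-154591237) was at 15.004 CPM in the A549-like group and at most 1.78 CPM elsewhere. The peak at the printed HNF4A start (chr20:44355148-44355979) was at 10.2 CPM and at most 1.57 CPM, that at its other start (chr20:44400785-44401694) at 6.18 CPM and at most 1.40 CPM, and the peak at the APOH start (chr17:66229006-66229913) at 10.3 CPM and at most 1.599 CPM. The motif CAAAGTCCA, which HNF4 factors bind, was searched on both strands. It stood in a promoter window of 1 of the 27 liver and gut genes with a RefSeq promoter (3.70%), MUC13, and in 0.472% of all 17577 genes with a promoter. This match is a description of the letters in the window.

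For the NRF2 targets the GPX2 promoter is printed, since its RNA was called higher, its start peak was over 2 times that of each other group, and it holds a match to the core of the antioxidant response element (ARE), TGACNNNGC, which NRF2 binds with a small MAF protein. It is chr14:64942696-64942995 on the minus strand of GRCh38.p14, and capitals mark the match 122 bases before the start, on the opposite strand.
GPX2: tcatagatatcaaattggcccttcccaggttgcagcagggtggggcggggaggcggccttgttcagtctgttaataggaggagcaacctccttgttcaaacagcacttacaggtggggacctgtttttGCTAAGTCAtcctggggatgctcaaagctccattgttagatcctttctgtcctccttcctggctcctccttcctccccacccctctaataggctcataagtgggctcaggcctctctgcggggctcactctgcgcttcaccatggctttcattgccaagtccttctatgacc

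The peak at this start (chr14:64942417-64943321) was at 32.6 CPM in the A549-like group, 8.78 CPM in the S100A9/CST1 group and at most 1.83 CPM in the other 3, and the S100A9/CST1 group also came next in RNA. The ARE core stood in 12 of 30 NRF2 and NADPH genes with a promoter (40%) and in 17.7% of all genes. The AP-1 motif TGANTCA, which can overlap the ARE, stood in 6.67% and 8.78%. Of 437 genes called higher outside the rule and with a promoter, 18.5% had the ARE core in at least 1 promoter window. Counted by window the share was 12.6%, against 13.95% of all windows. The windows of AKR1C1, AKR1C2 and ABCC2 held no match, which says only that these letters are not within 250 bases before those starts.

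Among retinoid, vitamin D and steroid genes, 2 of 11 were called higher, against 4.36% of all measured genes. The list median was 0.46, and 0.71 with at most 2% mitochondrial UMIs in all groups. Beside ALDH1A1, CYP24A1, the enzyme that inactivates vitamin D, was at 1366 CPM and at most 76.5 CPM elsewhere. VDR, the vitamin D receptor, was at 4.55 CPM, within the 1.59 to 20.9 CPM of the others.

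Neuronal and synaptic genes had 10 of 24 measured members called higher and 0 lower, with a median of 2.03, where 4.36% of all measured genes were called higher. Of the 10, 3 are rule genes (RBFOX3, IGSF11 and GPRIN3). The selection fixed their direction, and they also enter the medians of this list. CNTN1, an axonal adhesion molecule, was at 1211 CPM and at most 75.4 CPM elsewhere. GALNT13 was at 217.6 CPM, CADM2 at 165.1 CPM, CDH2, or N-cadherin, at 96.0 CPM and ROBO1, an axon guidance receptor, at 276.6 CPM. SNAP25, a core protein of synaptic vesicle fusion, was at 345.3 CPM but also at 251.8 CPM in the SLC30A8/MAGEA10 group. NCAM1 (0.700 CPM) was below the minimum to be measured. With at most 2% mitochondrial UMIs in all groups 10 of 23 were called, with a median of 3.09. ROBO1 was then not called, at 348.4 CPM against 208.2 CPM in the DHRS2/ZNF676 group, and NRXN3, a synaptic adhesion molecule, was, at 15.8 CPM and at most 5.39 CPM.

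Genes of lung and epithelium did not lead in the A549-like group. None of 9 measured lung lineage genes was called, with a median of -0.78. NKX2-1, the lung lineage factor, was at 8.57 CPM, against 90.5 CPM in the GRIA4/LINC01980 group, and SFTPC, SFTPA1 and SCGB3A2, genes of alveolar and airway secretory cells, were at 0 CPM. A count of 0 allows up to 0.525 CPM in the A549-like sum. Of 23 epithelial genes 0 were called, with a median of -1.03, and with at most 2% mitochondrial UMIs in all groups the median was 0.47. The sign of this list therefore depended on which barcodes were compared. KRT18 was highest in the A549-like group, at 506.4 CPM, while EPCAM (91.8 CPM) and CDH1 (86.2 CPM) were lower than in the GRIA4/LINC01980 group (710.0 and 350.4 CPM).

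Among 20 mesenchymal genes, CDH2 and S100A4 (52.1 CPM, at most 18.4 CPM elsewhere) were called higher, with a median of -0.77. VIM, or vimentin, was at 173.0 CPM, under the 847.0 CPM of the S100A9/CST1 group. ZEB1, a repressor of epithelial genes, was at 242.3 CPM, within the range of the others (39.6 to 512.3 CPM).

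Of 12 MHC class I genes of antigen presentation, 0 were highest in the A549-like group. NLRC5, their transcriptional activator, was called lower, at 11.9 CPM against at least 27.0 CPM elsewhere, and the list median was -1.26. B2M, the invariant chain, was at 470.0 CPM and at 863.0 to 3297 CPM in the other groups, and was not called since 1 group lay within 2 times. In barcodes of all groups with at most 2% mitochondrial UMIs TAP2, a peptide transporter, was called lower too. None of 10 class II genes was called (median -0.56). They summed to 404.8 CPM, above the 210.9 CPM of the SLC30A8/MAGEA10 group and the 156.1 CPM of the GRIA4/LINC01980 group, and CD74, the invariant chain of class II, was at 162.0 CPM against 2431 CPM in the S100A9/CST1 group. Of 21 interferon-stimulated genes, ISG20 was called higher at 22.4 CPM and MX1 lower at 1.75 CPM, with a median of -0.95. When all groups were limited to 2% mitochondrial UMIs, 12 were measured, with a median of -0.52. ISG20 and OAS1, an antiviral enzyme, were then called higher (OAS1 at 14.8 CPM and at most 4.51 CPM), and MX1 was under the minimum. HK2, a hexokinase, was the 1 of 23 hypoxia and glycolysis genes called, lower at 3.15 CPM against at least 10.5 CPM. None of 17 MAPK output genes was called, with a median of -0.0017.

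The summed CPM of the cell cycle lists lay within the range of the other groups. Of single genes, 5 of the S phase and 5 of the G2/M list were highest in the A549-like group. None of 26 S phase genes (median 0.19) or 28 G2/M genes (median 0.48) was called. With at most 2% mitochondrial UMIs in all groups these medians were 0.60 and 1.08, again with 0 called. After thinning to 2000 UMIs, 30.1% of 720 members had at least 5 UMIs of the G2/M list, between the 39.5% of the SLC30A8/MAGEA10 group and the 4.50% of the S100A9/CST1 group. Without thinning this share was 49.9%. At least 5 UMIs of the S phase list were found in 16.9% of thinned members.

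**Figure D3:**
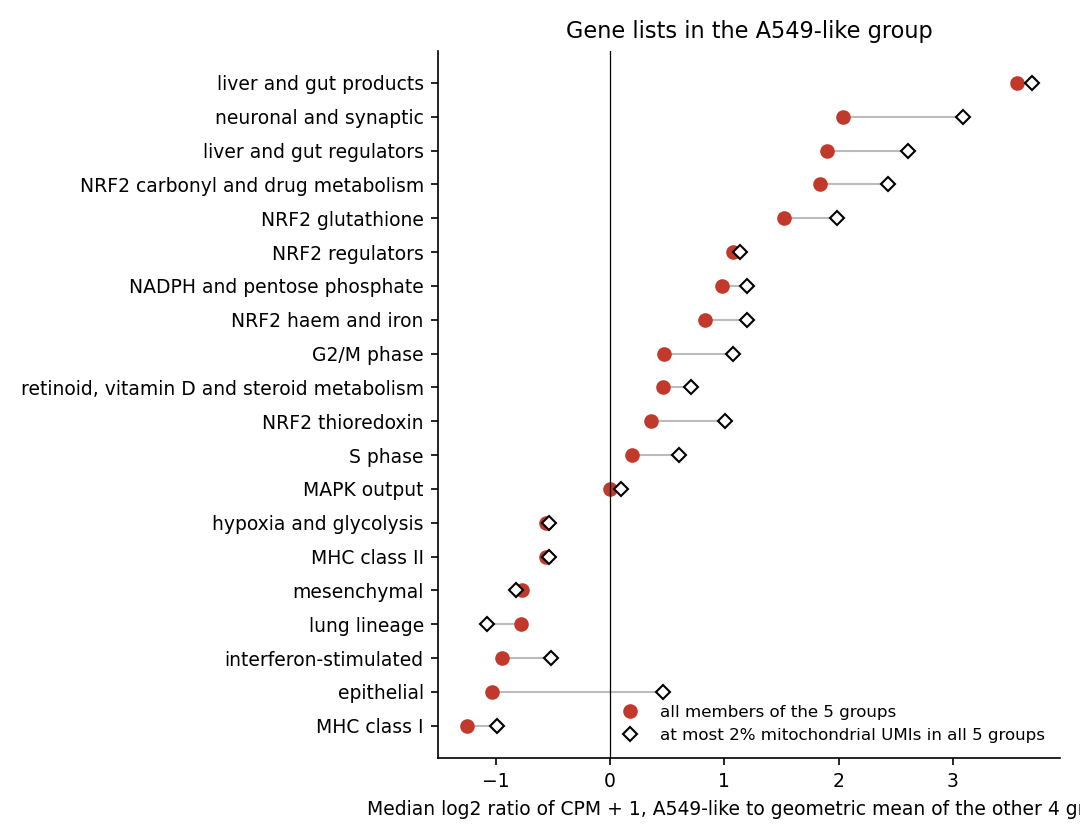
Median log2 ratio of CPM + 1 in the A549-like group to the geometric mean of the other 4 groups, for 20 gene lists. Filled points use all members and open diamonds only barcodes of at most 2% mitochondrial UMIs in all 5 groups. The neuronal and NRF2 carbonyl lists include rule genes, whose direction the selection fixed. Liver and gut products lie furthest right at 3.57 and 3.69, and the epithelial list lies on opposite sides of 0.

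The lowest genes were led by zinc finger genes. ZNF888 was at 0.525 CPM (0.108 to 1.53) against at least 6.10 CPM in every other group. ZSCAN23 was at 1.57 CPM against at least 9.86 CPM, and ZNF577 at 2.97 CPM against at least 15.6 CPM. ZNF625, ZNF100 and ZNF785 were at 4.02, 7.17 and 4.55 CPM against at least 17.6, 27.5 and 17.8 CPM. These genes encode putative repressors, many of them clustered on chromosome 19. In all, 29 of 520 measured zinc finger genes were called lower (5.58%) and 8 higher, where 0.784% of all measured genes were lower, and 33 of the 133 lower genes lie on chromosome 19, which holds 1134 measured genes. The count by name prefix was made after the lowest genes were seen.

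The other lowest genes were ACTR3C (7.87 CPM against at least 35.5 CPM), THNSL2 (0.875 against 6.18 CPM), STEAP1B (4.90 against 21.0 CPM) and GBP1 (1.92 against 9.86 CPM). GBP1 is a guanylate-binding protein induced by interferon gamma. At most 2% mitochondrial UMIs left 8 of the 10 lowest genes measured, of which 7 were called.

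A minority of members with more mitochondrial RNA stood apart from the rest. The 99 members above 5% mitochondrial UMIs held 40.2% of the UMIs of all members, at a median of 15363 UMIs per barcode, against 4400 in the 624 members at or below 2%. Their median peak counts were 21765 and 25164.5. In these sums, as CPM of non-mitochondrial UMIs, 855 of 11157 genes (7.66%) were at least 2 times higher above 5% and 446 (4%) lower. Both sets come from the same libraries.

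Lists of epithelial, lung and antigen presentation genes were higher in the 99 members, again in CPM of non-mitochondrial UMIs. Of 18 epithelial genes measured, 13 were higher above 5% mitochondrial UMIs, with a median log2 ratio of 2.01. GRHL2, an epithelial transcription factor, was at 0.932 CPM in the low and 48.9 CPM in the high members, and ESRP1, an epithelial splicing factor, at 0.621 and 34.6 CPM. Of 11 MHC class I genes 10 were higher (median 1.47), as were 7 of 9 class II genes (1.32), 4 of 5 lung lineage genes (2.10), 7 of 11 liver and gut products (1.15) and 47 of 78 cytosolic ribosomal protein genes (1.08). Of 12 NRF2 carbonyl genes 0 were higher or lower, with a median of -0.0046, and 7 of 28 G2/M genes were lower. The median over all genes was -0.07.

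Marker UMIs of other groups moved with the same split. They made up 10.3% of marker UMIs above 5% mitochondrial UMIs and 4.19% at or below 2%. The shares were 3.25% and 0.222% for markers of the DHRS2/ZNF676 group, 2.13% and 0.627% for the SLC30A8/MAGEA10 group and 3.34% and 3.23% for the S100A9/CST1 group. For markers of the GRIA4/LINC01980 group, in which GRHL2 was at 258.7 CPM of all UMIs, they were 1.62% and 0.118%. In the ATAC library 79 of the 99 high members had at least 1% of their peak counts in the leading peaks, as did 611 of the 624 low members. In those 79, again over all UMIs, GRHL2 was at 22.1 CPM and ALDH1A1 at 2694 CPM, against 0.317 and 2822 CPM in the 611. Of the 63 barcodes with the highest Scrublet doublet scores, 10 were among the 99 and 3 among the 624. The part of mixed droplets, free RNA or retained cytoplasm in these differences was not tested.

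In the ATAC library, 1122 peaks led in the A549-like group and 133 of 107414 (0.124%) were lowest there by the same 4-fold rule. Of the leading peaks with a RefSeq start on their chromosome, 92.4% lay over 2000 bases from any start, against 83.9% of measured peaks. The first-ranked peak was chr2:33411483-33412397, 24408 bases from the nearest start, that of RASGRP3. It had 62.3 CPM (58.0 to 66.9), the highest other group had 1.29 CPM, and 385 members (51.6%) had a count in it. A peak within CNTN1, chr12:40718328-40719238, was at 44.6 CPM and at most 1.05 CPM elsewhere, and 1 within PRKCA, chr17:66691463-66692385, at 33.8 CPM and at most 0.621 CPM.

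The other 5 of the 8 first-ranked peaks lay far from gene starts. The peak chr17:72182931-72183719, nearest to SOX9-AS1, was at 41.3 CPM and at most 0.668 CPM elsewhere. The peak chr22:48369901-48370787, nearest to TAFA5, was at 49.2 CPM and at most 1.07 CPM. The peaks chr15:53454877-53455724 and chr15:88388321-88389196 were at 40.03 and 30.6 CPM, and chr10:36280526-36281385 at 28.2 CPM, each at most 0.931 CPM elsewhere.

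Leading peaks lay more often than other peaks near genes whose RNA was high in the same barcodes. Of 755 leading peaks whose nearest start was that of a measured gene outside the rule, 248 (32.8%) were nearest to a gene called higher, against 5.14% of all measured peaks. Of the lowest peaks, 18.1% were nearest to a gene called lower, against 0.836%. PDE4D, a cyclic AMP phosphodiesterase at 8902 CPM of RNA against at most 1187 CPM elsewhere, had 14 leading peaks among the 88 nearest to it. ALDH1A1 had 8, CPLX2 7 and ST6GAL2 6, and AKR1C2 and PDE3A had 5 each.

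Promoter peaks, summed within 2000 bases of starts, were at least 2 times higher in the A549-like group for 154 of 12108 genes (1.27%) and lower for 118 (0.975%). Among genes whose RNA was called higher, 47 of 356 (13.2%) also had the higher promoter, against 0.419% of genes with neither RNA call. Among genes whose RNA was called lower, 28 of 82 (34.1%) had the lower promoter, against 0.698%. Across 10466 genes, which are not independent replicates and share the barcodes, Pearson's r between the RNA and promoter log2 ratios was 0.60.

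By name, the ST6GAL2 promoter was at 44.3 CPM and at most 3.02 CPM elsewhere, NRCAM at 33.1 and at most 4.53 CPM, and HNF4A over its starts at 16.4 and at most 2.96 CPM. AKR1C2 was at 12.1 and at most 2.24 CPM. On the low side, ZNF625 was at 1.61 CPM against at least 12.8 CPM, ZNF785 at 3.42 against 24.0 CPM and ACTR3C at 3.54 against 17.5 CPM. HK2 was at 18.8 against 43.3 CPM. The genes did not all follow this pattern: the ALDH1A1 promoter was at 7.05 CPM and 3.63 CPM in the S100A9/CST1 group, and that of MDM2 at 91.4 and at most 57.4 CPM, and neither was called.

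**Figure D4:**
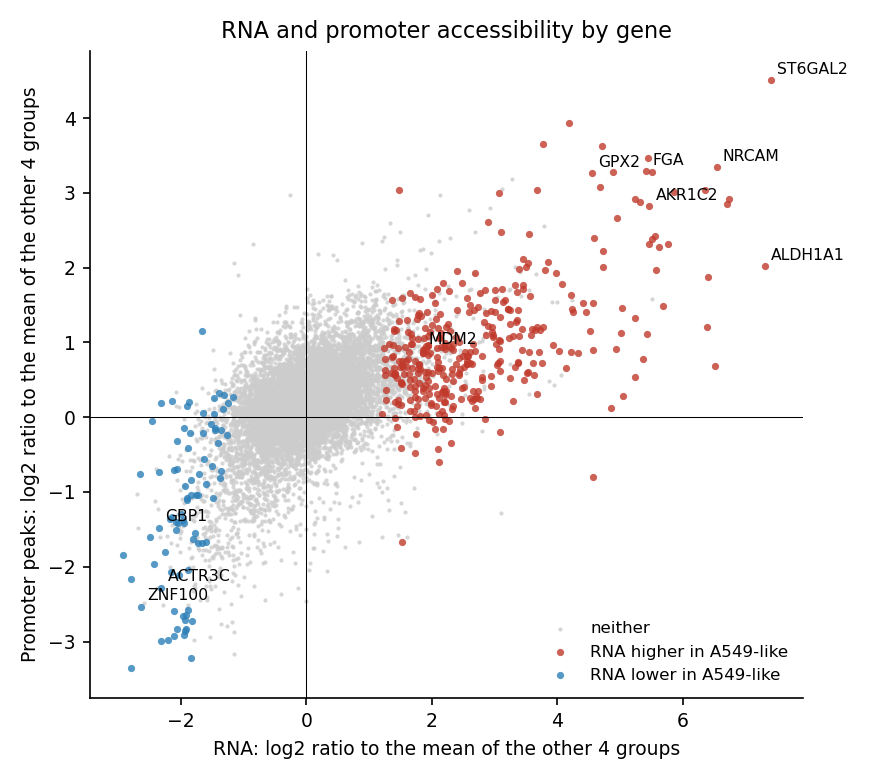
Each point is a gene, with the log2 ratio of RNA in the A549-like group to the geometric mean of the other 4 groups on the x axis and the same for its promoter peaks on the y axis. Red and blue points are genes called higher or lower in RNA. The cloud slopes upward with r of 0.60, ST6GAL2 and NRCAM lie in the upper right, and ZNF100 and ACTR3C lie in the lower left.

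Peaks around CDKN2A on chromosome 9 form a gap in the A549-like group. CDKN2A encodes the cell cycle inhibitors p16 and p14ARF, and its deletion is common in lung cancer. Across 23 neighbouring peaks from chr9:21836189 to 22120166, a stretch of 284.0 kb that holds the CDKN2A and CDKN2B starts, summed accessibility was 8.53 CPM (6.97 to 10.3) in the A549-like group. It was 216.3 CPM in the GRIA4/LINC01980 group and 88.2 CPM in the DHRS2/ZNF676 group. In members with at most 2% mitochondrial UMIs the sum was 2.30 CPM. No peak of the stretch was above 1.48 CPM in the A549-like group, while in the GRIA4/LINC01980 group these peaks ranged from 0.355 to 37.5 CPM.

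On both sides of this stretch the A549-like group had open peaks. The 46 peaks on the side of the MTAP start (chr9:21316531-21832683) summed to 253.8 CPM and to 209.7 CPM in the GRIA4/LINC01980 group. The 26 peaks on the other side (chr9:22124332-22470580) summed to 94.2 and 107.2 CPM. The S100A9/CST1 and SLC30A8/MAGEA10 groups had at most 8.35 CPM in each of the 3 stretches, so that the gap in the A549-like group was bounded and theirs ran through the whole window. The limits of the stretch were drawn after its values were seen, as the run of neighbouring peaks under 2 CPM and under 1/2 of the GRIA4/LINC01980 group. By the same limits 8 peaks of the MTAP side and 7 of the other side were also low. Among the 8 was a run of 6 neighbours (chr9:21746880-21783876) at 0.247 to 0.783 CPM, against 2.13 to 5.86 CPM in the GRIA4/LINC01980 group. DNA copy number was not measured.

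RNA of CDKN2A and CDKN2B was lower in the A549-like group than in the GRIA4/LINC01980 and DHRS2/ZNF676 groups. CDKN2B, a neighbouring inhibitor gene, was at 1.57 CPM in all members and 0.309 CPM in those with at most 2% mitochondrial UMIs, against 50.001 CPM in the GRIA4/LINC01980 group and 20.4 CPM in the DHRS2/ZNF676 group. CDKN2A was at 30.8 CPM (26.4 to 35.7) in all members and at 6.80 CPM (4.26 to 10.3) in the low ones, against 314.0 CPM in the GRIA4/LINC01980 group, 91.4 CPM in the DHRS2/ZNF676 group and 10.95 and 14.08 CPM in the groups that were closed throughout. MTAP, a methionine salvage enzyme whose start lies outside the gap, was at 110.7 CPM, and at 11.3 and 8.65 CPM in the S100A9/CST1 and SLC30A8/MAGEA10 groups. It was at 344.1 CPM in the GRIA4/LINC01980 group and 121.6 CPM in the DHRS2/ZNF676 group, although the summed peaks of that side were highest in the A549-like group. CDKN2B-AS1, a long noncoding RNA that runs across the locus, was at 42.5 CPM against at most 3.87 CPM in the S100A9/CST1 and SLC30A8/MAGEA10 groups. It was at 99.4 CPM in the GRIA4/LINC01980 group and 55.4 CPM in the DHRS2/ZNF676 group. In members with at most 2% mitochondrial UMIs CDKN2B-AS1 was at 45.4 CPM (38.4 to 53.4) and MTAP at 115.0 CPM, so neither fell as CDKN2A and CDKN2B did. How strand was used in counting is not known here, so reads of an antisense gene and its partner cannot be told apart.

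**Figure D5:**
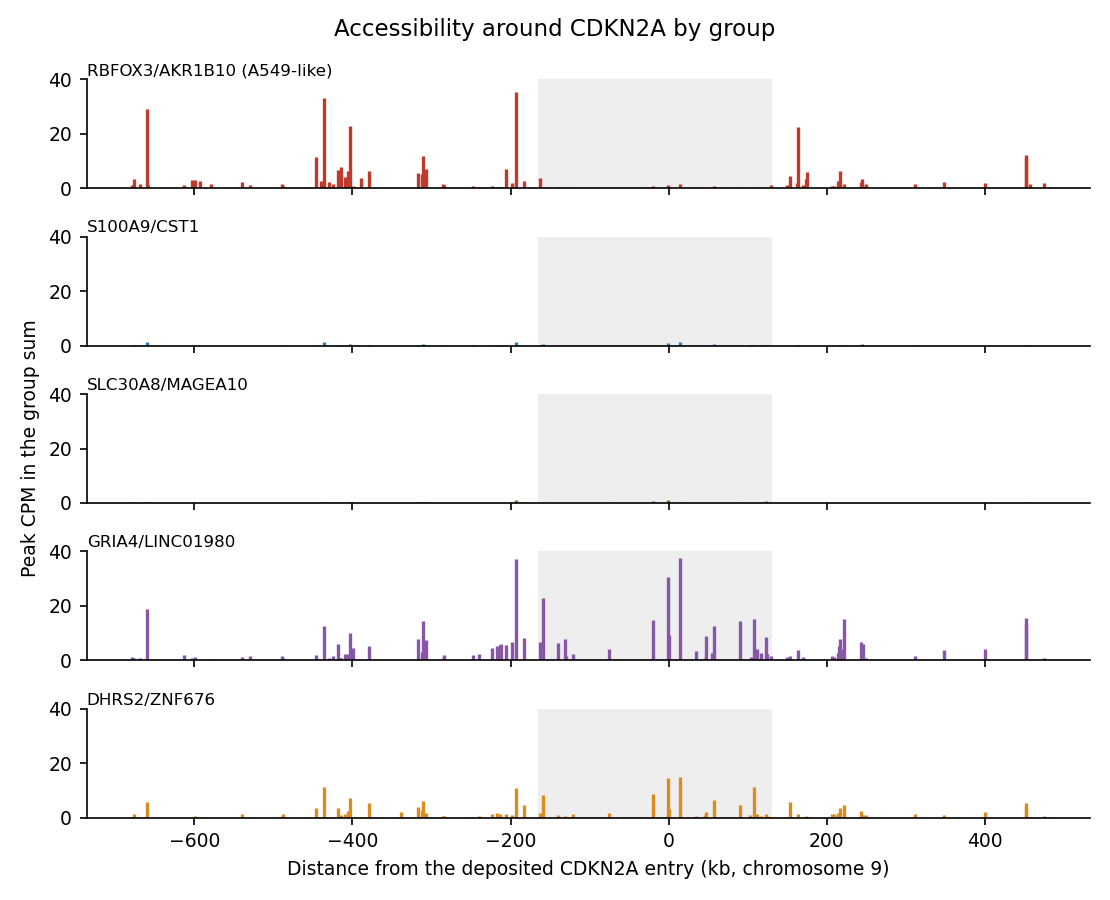
Peak CPM in each group sum against distance in kb from the deposited CDKN2A entry on chromosome 9, with 1 panel per group and 1 line per peak. In the shaded stretch of 23 peaks the A549-like group stays at or below 1.48 CPM while its flanks reach 35.1 and 22.4 CPM, and the S100A9/CST1 and SLC30A8/MAGEA10 groups are near 0 throughout.

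Whole chromosomes also differed in their share of peak counts. Chromosome 17 held 8.30% of the peak counts of the A549-like group and at most 6.03% of those of any other, a log2 ratio of 0.53 to their geometric mean, and chromosome 15 held 3.74% and at most 3.05%, also 0.53. The lowest were chromosome 4 (-0.35), chromosome 3 (-0.31) and chromosome 1 (-0.27). With start peaks alone the ratios of chromosomes 17 and 15 were 0.49 and 0.54. Over 23 chromosomes Pearson's r with the same ratio of gene UMIs was 0.61, a description over points that share the barcodes. Chromosome 19 went apart, with 0.32 in peaks and -0.30 in UMIs. Near starts lay 44.8% of the peak counts of the A549-like group, against 34.4 to 43.5% in the others.

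Within the A549-like group, the genes differed in how evenly they were seen. Among 720 members thinned to 2000 UMIs, ALDH1A1 had a UMI in 97.2%, AKR1C2 in 90% and CYP24A1 in 89.3%. In the S100A9/CST1 group thinned in the same way, these shares were 2.25%, 32.5% and 9.25%. FGB had a UMI in 16.8% of thinned members, CPS1 in 12.4% and HNF4A in 8.89%, against 0.25%, 0.750% and 0% of the 400 barcodes of the S100A9/CST1 group. A count of 0 allows a share of up to 0.918% there. The highest thinned shares of any other group were 4.71% for FGB, in the GRIA4/LINC01980 group, and 6.83% for CPS1, in the DHRS2/ZNF676 group. Without thinning CPS1 had a UMI in 46% of that group and in 18.2% of members. In thinned members the NRF2 carbonyl list had a median of 12 UMIs per barcode (10th and 90th percentiles 5 and 19), against 5 in the S100A9/CST1 group and at most 1 in the other 3. This list includes the rule gene AKR1B10, so the selection fixed part of the difference, and the list was not summed without it.

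Markers of cells outside the 5 lines were near 0. In the A549-like sum, CD3D, CD3E, CD79A, MS4A1, NKG7 and FCGR3A of 12 immune markers were at 0, and the list summed to 18.2 CPM, against 27.5 to 71.8 CPM in the other groups. Endothelial markers (8) summed to 9.10 CPM with CDH5 and ERG at 0, fibroblast markers (6) to 13.3 CPM with DCN and LUM at 0, and all 5 red cell markers were at 0. In the other groups these sums were 5.30 to 98.5 CPM for endothelial and 8.30 to 147.4 CPM for fibroblast markers.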

How the data were processed

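RNA and ATAC were measured in the same droplets, 1 library of each kind. Per the submitters' processing notes, the authors used Cell Ranger ARC 2.0.0 on GRCh38, and the deposited values are whole-number counts per gene or peak and barcode, not normalised. The sources used here do not give how cells and peaks were called, the annotation or the strand setting. Gene positions in the file span annotated starts and carry no strand.

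Barcodes with under 1000 UMIs, under 1000 peak counts or over 20% mitochondrial UMIs were left out. The members and all gene lists were chosen with earlier results of these data known, and the region around CDKN2A, the promoter motifs and the count of zinc finger genes were chosen after values were seen. Counts were summed per group and divided by the group's total (5716832 UMIs and 24259787 peak counts in the A549-like group; other groups 4719918 to 8520247 UMIs), in Python 3.11.15 with NumPy 2.4.6, SciPy 1.17.1 and pandas 2.3.3. Before ratios, 1 was added to each CPM. Of non-zero peak entries 83.3% were even, so peak intervals use counts divided by 2. Intervals and limits of 0 counts (3 counts) cover counting error only. The genes named are the 5 rule genes, the 15 with the largest ratio to the highest other group, the 10 with the smallest ratio to the lowest, called members of each list with up to 8 values, the line markers and the 8 peaks with the largest ratio, at most 2 per chromosome. Other genes named were chosen after their values were seen. Genes of the Y chromosome and XIST are left out, and a few further genes and 1 gene list are not reported here. Motifs were searched in RefSeq promoters matched by symbol for 17577 genes. Scrublet (scanpy 1.11.5) scored doublets, whose removal was only an alternative. TMM factors came from edgeR 4.0.16 in R 4.3.3. The sums and calls were tested on simulated data with known answers. Alternatives changed the rule, the barcode limits, thinning, scaling, the pseudocount, the fold and the gene minimum.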

Additional observations from a re-analysis of the deposited data

Results flagged for a closer look

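Above the 20% mitochondrial limit, 51 further barcodes met the marker rule and stand in no comparison of the report. Their median mitochondrial share was 23.3% and their median depth 12099 UMIs. On the CPM scale of nuclear genes alone, ALDH1A1 was at 2653 in their sum and at 2656 in the members. MUC5AC was at 437.0 and 130.1, FGA at 222.9 and 101.4, and FGG at 187.5 and 107.4. AKR1C1 was at 559.9 and 898.6 and CPLX2 at 79.8 and 167.0. In the ATAC library 47 of the 51 had at least 1% of their peak counts in the leading peaks, with a median of 1.87%. They share the libraries and the culture of the members, and the part of RNA quality in these differences was not tested.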

How the results depend on the processing

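No paired analysis was possible because the study has 1 library of each kind and no replicate. All 15 leading genes were called under each of the 16 alternatives run, while the number of lower genes (133) varied most. It was 301 with a marker share of at least 90%, 245 with a mitochondrial limit of 10%, 212 without AKR1B10 in the rule, 211 after thinning, 52 with 5 added to each CPM and 4 at 4-fold. Among alternatives added after the data were seen, it was 554 with members of at most 2% mitochondrial UMIs, 206 with that limit in all groups, 505 with members free of marker UMIs of other groups and 316 with members of at least 1% of peak counts in the leading peaks. The number of higher genes (739) was 487 with at least 200 UMIs per gene and 268 at 4-fold, and lay between 511 and 1056 otherwise. Members were 21.0% of kept barcodes at a marker share of 90%, 35.5% at a mitochondrial limit of 10% and 23.3% without AKR1B10. Lists with a median of at least 1 in size (8) numbered 13 at a marker share of 90%, 14 after thinning, and 13 each with members of at most 2% mitochondrial UMIs and with at least 1% of peak counts in the leading peaks. Leading peaks (1122) were 3936 at 2-fold and 670 when each barcode counted once per peak. The MAPK median turned from -0.0017 to 0.16 both at a mitochondrial limit of 10% and after thinning, the retinoid median to -0.17 with no gene minimum, and the epithelial median to 0.47 with at most 2% mitochondrial UMIs in all groups. TMM scaling moved the median of all genes from 0.08 to -0.08. Leaving aside the added alternatives, 313 of 348 recomputed list medians moved by under 1.5 times and kept their sign, sign changes close to 0 aside. Among single genes, THNSL2 with 5 added and ZNF785 with at most 2% mitochondrial UMIs in all groups were no longer called lower. The cause of these changes was not tested. Depth limits the comparison at low mitochondrial share, where the GRIA4/LINC01980 group held 221491 UMIs.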
